A study of Mus musculus with 11 samples.

Results

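Guanylin, uroguanylin, their receptor guanylate cyclase C, the kinase and the channel CFTR downstream of it, and the anion channel bestrophin-2 were followed in the colon of germ-free and humanized mice. The genes were chosen by name, and all 6 of them (Guca2a, Guca2b, Gucy2c, Prkg2, Cftr and Best2) were found among the 43346 genes of the deposited count table and passed the low-expression filter. RNA-Seq of colonic tissue came from 11 male Swiss Webster mice of 8 to 10 weeks. The 5 germ-free mice were kept without microbes. The 6 humanized mice were raised germ-free, were given 300 μL of a human stool suspension by gavage at 4 to 5 weeks of age, and were studied after 4 to 5 weeks of colonization. Stool came from 1 donor, so the humanized group represents 1 human microbiota, and no group of mice carried a mouse microbiota.

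Guanylin and uroguanylin are small peptide hormones that intestinal epithelial cells release into the lumen. Both bind guanylate cyclase C on the apical membrane, which then makes cyclic GMP (cGMP). In intestinal epithelial cells, cGMP can activate the membrane-bound cGMP-dependent protein kinase II. This kinase phosphorylates the chloride and bicarbonate channel CFTR and opens it, so that fluid and bicarbonate enter the lumen. Heat-stable enterotoxins of diarrhoea-causing bacteria act on the same receptor. Guanylin is the main ligand of the colon, and uroguanylin that of the small intestine. Bestrophin-2 is a calcium-activated anion channel of colonic goblet cells that is known to carry bicarbonate.

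Of these 6 genes, only Best2 passed the test between the groups, with a lower level in humanized mice. Its call depended on the test and on single mice, as given below. Across all 19863 genes tested, 19.3% passed in either direction, 10.1% as lower and 9.2% as higher in humanized mice. Guca2a and Prkg2 were lower in 5 of 6 humanized mice than in every germ-free mouse, but humanized mouse 5 was above every germ-free mouse for both genes, and neither passed. Guca2b, Gucy2c and Cftr did not pass either. A gene was called at a false discovery rate (FDR, Benjamini–Hochberg) below 0.01 in the exact test of edgeR. A log2-fold change (LFC) above 0 means a higher level in humanized mice, and standard errors (SE) and 95% intervals are from the quasi-likelihood fit. Levels are RPKM, reads per kilobase of gene relative to the size of the library, from libraries scaled by TMM (trimmed mean of M-values), and can be compared between genes.

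Between 39125290 and 64148538 reads were counted per mouse. Humanized mouse 5 stood apart from its group, at a distance of 93.8 from the group mean over log2 CPM (counts scaled by library size) of all tested genes, against 50.5 to 66.0 in the other humanized mice and 38.8 to 46.7 in germ-free mice. Its summed level was the lowest of the 11 mice for 9 smooth muscle markers (95.7 CPM) and for 6 fibroblast markers (123 CPM). For the same markers, the other humanized mice had up to 855 CPM and 987 CPM, and germ-free mice had 832 to 2378 CPM and 1338 to 1800 CPM. All 11 epithelial markers were detected in every mouse, and their sum was 9699 to 12651 CPM in germ-free mice and 10619 to 15048 CPM in humanized mice. Of these, 2 passed as higher and 0 as lower, with a median LFC of 0.18. All 8 goblet cell markers were also detected, with sums of 8616 to 11789 CPM in germ-free mice and 13277 to 17313 CPM in humanized mice, and 6 of them passed as higher (2 with total counts or epithelial scaling, described below). Of the muscle markers, 9 of 9 passed as lower, of the fibroblast markers 5 of 6, of the enteric neuron and glia markers 7 of 7, and of the crypt base markers 5 of 6. Of the endothelial markers, 1 of 5 passed as lower. Surface colonocyte markers passed as higher in 2 of 7 cases (median LFC 0.42), immune markers in 3 of 7, tuft cell markers in 3 of 4 and enteroendocrine markers in 2 of 5. Of the posterior Hox genes, which mark position along the gut, 2 of 3 tested passed as lower (median LFC −1.52), and of the small intestine markers 2 of 8 passed as lower. In the quasi-likelihood test, 4 muscle, 3 fibroblast, 7 neuron and glia, 4 crypt base and 0 posterior Hox genes passed as lower, and 2 goblet markers as higher. The part of these markers in the results below was not tested. In bulk tissue, fewer cells of a type and less RNA per cell cannot be told apart.

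The genes of both ligands lie side by side on mouse chromosome 4. Guca2a (ENSMUSG00000023247) lies at chr4:119637704-119639471 on the plus strand of mm10, and Guca2b (ENSMUSG00000032978) at chr4:119656607-119658954 on the minus strand. They face each other across a gap of 17135 bases, in which the table holds 0 other genes. The sequences upstream of their starts are shown because the neighbours differed in level. Their ratio also differed between the groups, though the groups overlapped and the call depended on single mice, as given below. Both were taken from RefSeq promoters of GRCm38.p6 (the same assembly as mm10) and end at the last base before the deposited gene start. The sequence of Guca2a spans chr4:119637482-119637703 (222 bases, plus strand), and that of Guca2b spans chr4:119658955-119659195 (241 bases, minus strand, printed 5′ to 3′ for the gene). Capitals mark matches to TTATC, a core bound by GATA factors, in Guca2a and to GTTAAT, a core bound by HNF1, in Guca2b.
Guca2a: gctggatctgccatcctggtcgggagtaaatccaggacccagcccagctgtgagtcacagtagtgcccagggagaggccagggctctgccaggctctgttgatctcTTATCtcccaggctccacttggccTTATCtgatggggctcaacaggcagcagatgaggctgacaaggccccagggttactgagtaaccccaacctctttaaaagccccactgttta
Guca2b: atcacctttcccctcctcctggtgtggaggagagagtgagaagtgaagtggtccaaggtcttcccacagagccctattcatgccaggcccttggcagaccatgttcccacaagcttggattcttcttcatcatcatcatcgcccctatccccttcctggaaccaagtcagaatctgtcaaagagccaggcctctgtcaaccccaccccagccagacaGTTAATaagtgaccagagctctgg

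The search covered both strands for TTATC and GTTAAT as above, for the core TTTAT of sites of the CDX factors and for the core CAAAGT of sites of the factor HNF4, and no matches of different motifs overlapped. The Guca2a sequence held 2 matches to TTATC, which start 116 and 92 bases before the gene, and none to the other motifs. The Guca2b sequence held 1 match to GTTAAT, which starts 24 bases before the gene, and none to the others. In windows of the same length and position, TTATC occurred in 20.7% of 32851 mouse promoters and GTTAAT in 6.29%. A match is a description of the sequence only. A RefSeq promoter was given for 3 of the 6 genes.

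Guca2a, the gene of guanylin, was the most abundant of the 6 genes and lay at percentile 99.9 of all tested genes by mean RPKM in either group. Germ-free mice had 2150, 2498, 2370, 2196 and 2338 RPKM, in the order of their numbers. Humanized mice ranged from 1548 to 2811 RPKM, with a median of 1741. Germ-free mice thus varied little, and 5 humanized mice lay together below them, between 1548 and 1938 RPKM, while humanized mouse 5 held the highest value of all. The mean of germ-free mice was 2310 ± 140 RPKM (SD, n = 5), and that of humanized mice 1897 ± 470 RPKM (SD, n = 6). The LFC of −0.28 (SE 0.14, interval −0.59 to 0.02) did not pass, with an FDR of 0.127 in the exact test. Without humanized mouse 5, the humanized mean was 1714 ± 159 RPKM (SD, n = 5), and Guca2a passed as lower with an LFC of −0.43 and an FDR of 4.87e-06 in the exact test. Of the 11 analyses with 1 mouse left out, this was the only 1 in which Guca2a passed. In the other 10 its FDR was up to 0.241 in the exact test.

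Guca2b, the gene of uroguanylin, was far less abundant. Germ-free mice had 31.3, 52.3, 45.4, 59.4 and 51.5 RPKM. Humanized mice had 46.7 to 56.8 RPKM, with a median of 49.9, which lies within the germ-free range. The germ-free mice spanned a wider range than the humanized mice, from mouse 1 at the bottom to mouse 4 at the top. The LFC was 0.09 (SE 0.13, interval −0.20 to 0.37) and the FDR 0.703 in the exact test. Without germ-free mouse 1 the LFC was −0.03. The median share of guanylin in the summed RPKM of both ligands was 97.9% for germ-free and 97.2% for humanized mice.

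Gucy2c, which encodes guanylate cyclase C (chr6:136697285-136781765), had 102, 109, 101, 97.5 and 98.2 RPKM in germ-free mice. Humanized mice had 95.5 to 140 RPKM, with a median of 114. Of the humanized mice, 5 lay above every germ-free mouse and mouse 3 lay below every one. The LFC was 0.19 (SE 0.085, interval 0.00 to 0.37) and did not pass, with an FDR of 0.121 in the exact test. Of the 5 humanized mice with Guca2a below every germ-free mouse, 4 had Gucy2c above every germ-free mouse.

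**Figure D1:**
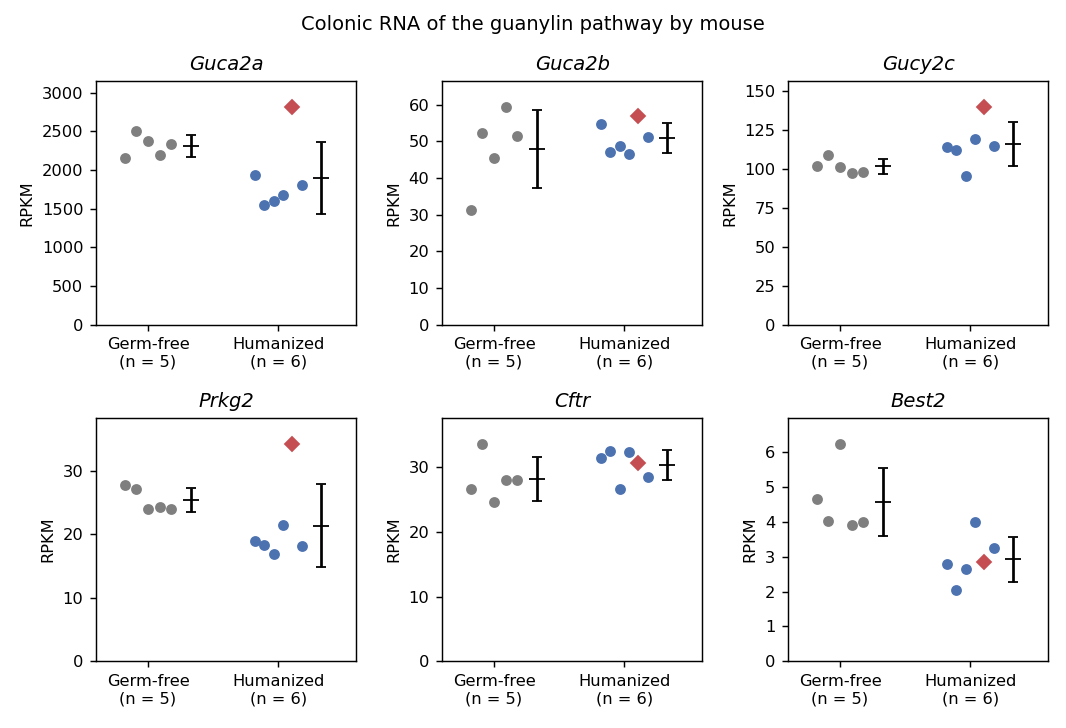
RPKM of the 6 genes in each mouse, 1 panel per gene, with germ-free and humanized mice side by side, group means as lines and humanized mouse 5 as a red diamond. For Guca2a and Prkg2, humanized mouse 5 lies above all germ-free mice (2811 and 34.2 RPKM) and the other 5 humanized mice lie below them.

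Prkg2, which encodes cGMP-dependent protein kinase II (chr5:98929773-99037351), was highest in the same mouse as guanylin. Germ-free mice had 27.7, 27.1, 24.0, 24.3 and 23.9 RPKM. Humanized mice had 17.0 to 34.2 RPKM, with a median of 18.6. The 5 humanized mice other than mouse 5 had at most 21.5 RPKM, below the lowest germ-free mouse, and mouse 5 was again the highest of all. The LFC was −0.25 (SE 0.16, interval −0.60 to 0.10) and the FDR 0.270 in the exact test. Without humanized mouse 5, Prkg2 passed as lower with an LFC of −0.44 and an FDR of 4.35e-06 in the exact test, and the humanized mean was 18.8 ± 1.69 RPKM (SD, n = 5) against 25.4 ± 1.83 RPKM (SD, n = 5). Prkg2 passed in only 1 of the 11 analyses with 1 mouse left out. In the other 10 its FDR was up to 0.433 in the exact test.

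Cftr, the channel gene (chr6:18170687-18322768), had 26.6, 33.5, 24.6, 28.0 and 27.9 RPKM in germ-free mice. Humanized mice had 26.5 to 32.4 RPKM, with a median of 31.0, and all of them lay within the germ-free range. The LFC was 0.11 (SE 0.083, interval −0.07 to 0.29) and the FDR 0.439 in the exact test. The interval holds under TMM only, and the LFC was −0.081 with total counts and −0.083 with epithelial scaling. Cftr shares 129 exon bases with the antisense gene Gm15592, and since the library kit does not mark strand, reads there cannot be told apart. Gm15592 itself was given 348 to 531 reads per mouse, against 8956 to 15171 for Cftr.

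Best2, the goblet cell bestrophin (chr8:85007202-85014408), had the lowest level of the 6 genes. Germ-free mice had 4.65, 4.02, 6.23, 3.92 and 3.99 RPKM. Humanized mice had 2.05 to 3.99 RPKM, with a median of 2.81. The groups met at their edges, since humanized mouse 4 lay just above the lowest germ-free mouse, and the other 5 humanized mice were below every germ-free mouse. Best2 fell with an LFC of −0.64 (SE 0.17, interval −1.01 to −0.26), or 0.642 of the germ-free level, with an FDR of 0.00674 in the exact test. The quasi-likelihood test gave an FDR of 0.0163, so the call depended on the test. It also depended on single mice, since the FDR was 0.00112 to 0.0464 in the exact test with 1 mouse left out, and was above 0.01 without germ-free mouse 1, 3 or 5 or humanized mouse 1, 2 or 3. Best2 was covered by 159 to 761 reads per mouse.

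None of the 6 genes separated the groups without overlap, whereas 18.4% of all tested genes did (9.73% lower and 8.67% higher in humanized mice). By level, Guca2a stood far above Gucy2c, which stood above the rest in both groups. In germ-free mice, Guca2b and Cftr overlapped (31.3 to 59.4 and 24.6 to 33.5 RPKM), and so did Cftr and Prkg2 (23.9 to 27.7 RPKM for Prkg2). In humanized mice, Guca2b lay above Cftr without overlap, and Cftr and Prkg2 overlapped only through mouse 5. Best2 was the lowest of the 6 in every mouse.

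**Figure D2:**
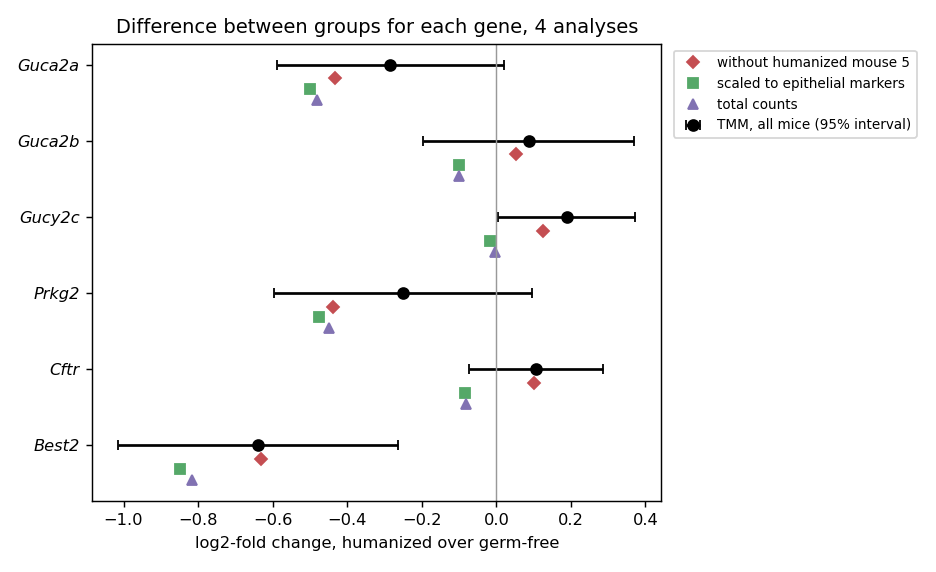
LFC of the 6 genes, humanized over germ-free mice, under TMM with all mice, without humanized mouse 5, with libraries scaled to the epithelial markers, and with total counts. Only the points under TMM with all mice carry 95% intervals. Leaving out that mouse moves Guca2a from −0.28 to −0.43 and Prkg2 from −0.25 to −0.44, and leaves Best2 near −0.63.

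The scale of the libraries bore on the direction of the small changes. Under TMM the median LFC of all genes was 0.01. It was −0.18 with total counts, and −0.18 with libraries scaled to the epithelial markers. Under these scalings Guca2a passed as lower (LFC −0.48 and −0.50), Best2 passed as lower (−0.82 and −0.85), and Prkg2 passed only with epithelial scaling (−0.48, FDR 0.00857 in the exact test). The LFC of Guca2b, Gucy2c and Cftr turned to −0.10, −0.0027 and −0.081 with total counts, and to −0.10, −0.018 and −0.083 with epithelial scaling. Relative to the median of all genes, these 3 genes stayed between 0.076 and 0.18 on the log2 scale under TMM, total-count and epithelial scaling, and Guca2a stayed between −0.32 and −0.29.

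Ratios between genes of the same mouse do not depend on the library scale. The question was whether ligand, receptor and channel kept their proportion between the groups. The summed RPKM of both ligands was 21.3, 23.3, 23.9, 23.1 and 24.3 times that of the receptor in germ-free mice. In humanized mice it was 14.2 to 20.5 times the receptor, with humanized mouse 5 at the top. All 6 humanized mice, mouse 5 included, lay below every germ-free mouse. Germ-free mice had a mean log2 ratio of 4.53 ± 0.073 (SD, n = 5), and humanized mice one of 4.05 ± 0.20 (SD, n = 6), a difference of −0.49 (two-sided exact permutation test p = 0.00433, adjusted p = 0.0130 over 15 tests of this kind). Leaving out any 1 mouse gave an adjusted p of at most 0.0286 in the same permutation test. With medians in place of means, the difference was −0.48 with an adjusted p of 0.0779 in the permutation test.

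The geometric mean ratio of guanylin to uroguanylin was 49.2 without microbes and 36.6 with them. It was 68.7, 47.8, 52.2, 37.0 and 45.4 in germ-free mice. In humanized mice 5 values lay at 32.8 to 35.8, below every germ-free mouse, and mouse 5 had 49.5. The log2 difference was −0.43 (two-sided exact permutation test p = 0.0303, adjusted p = 0.0413). This call was lost without any 1 of germ-free mice 1, 2 and 3 and humanized mice 1, 2, 3, 4 and 6, with adjusted permutation p-values of 0.0584 to 0.104, and the difference without germ-free mouse 1 was −0.31. The ratio of Cftr to Gucy2c differed by −0.07 on the log2 scale (exact permutation p = 0.433, adjusted p = 0.507).

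**Figure D3:**
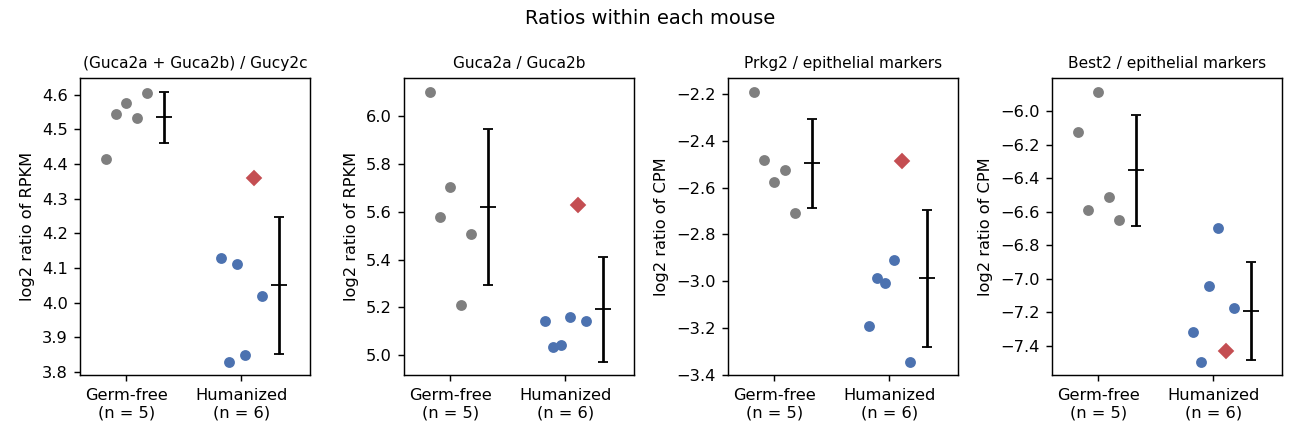
Log2 ratios within each mouse, with group means as lines and humanized mouse 5 as a red diamond. Panels show both ligands over the receptor and Guca2a over Guca2b (RPKM), and Prkg2 and Best2 over the epithelial markers (CPM). The groups do not overlap for the ligand to receptor ratio and for Best2 over the epithelial markers. They overlap in the other panels.

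Set against the mean log2 CPM of the 11 epithelial markers in the same mouse, Guca2a differed by −0.51 on the log2 scale between humanized and germ-free mice and Best2 by −0.84, each without overlap of the groups (exact permutation adjusted p = 0.0130 for both). Prkg2 differed by −0.49 (adjusted permutation p = 0.0253), and 5 of 6 humanized mice lay below every germ-free mouse. This call was lost without germ-free mouse 1 or 2 or humanized mouse 1 or 6, where the adjusted permutation p was 0.05 to 0.0529. The differences of Guca2b, Gucy2c and Cftr were −0.08, −0.02 and −0.09, and did not pass. They were 0.04, 0.11 and 0.03 with the median of the markers, so that their direction depended on the summary. The median of all 19863 tested genes was −0.20 on this scale, since the epithelial markers themselves lay higher in humanized mice. Of all tested genes, 76.9% lay below 0, and the share of them without overlap was not counted on this scale.

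The LFC of the goblet markers lay above that of most genes, so a comparison with them places nearly all genes lower. On this scale the median of all tested genes was −0.57, and 94.3% of them lay below 0. The share of them without overlap was not counted here either. Best2 differed by −1.21 and Guca2a by −0.88, both without overlap (exact permutation adjusted p = 0.0130 for both). The other 4 differed by −0.86 (Prkg2), −0.45 (Cftr), −0.45 (Guca2b) and −0.38 (Gucy2c), with overlapping groups and adjusted permutation p-values of 0.0186 to 0.0292. These tests ask whether a gene kept its proportion to the goblet markers, and Cftr, Guca2b and Gucy2c lay above the median of all genes by 0.11, 0.12 and 0.18. Best2, Guca2a and Prkg2 lay below that median, with differences from it of −0.64, −0.31 and −0.29. Guca2b lost its call without germ-free mouse 4 or humanized mouse 1 or 6 (adjusted permutation p of 0.0584 to 0.0595). With the median of the markers, Gucy2c differed by −0.33 and lost its call (adjusted permutation p = 0.0885). Best2 is known from goblet cells, and it passed as lower in the exact test, in which 6 of 8 goblet markers passed as higher. In the quasi-likelihood test Best2 did not pass, and 2 of the 8 markers did (Clca1 and Sytl2).

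Of 26 other genes of cGMP synthesis, effect, breakdown and export, 21 were tested. Of these, 9 passed as lower in humanized mice, 1 as higher and 11 did not pass, with a median LFC of −0.55 against 0.01 for all genes. The lower calls are 42.9% of the list, against 10.1% of all tested genes. The 1 higher gene was Pde9a, a phosphodiesterase that breaks down cGMP with high affinity. It rose from 25.2 ± 1.10 RPKM (SD, n = 5) to 38.9 ± 4.28 RPKM (SD, n = 6), with an LFC of 0.62 (SE 0.075, FDR 8.39e-11, exact test). Pde5a, the other main cGMP-specific phosphodiesterase, went the other way and fell from 26.0 to 20.1 RPKM (LFC −0.37, FDR 2.09e-04, exact test). Both kept their direction and their call under total-count and epithelial scaling.

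The other 8 genes called lower belong to other cGMP routes or are less specific to cGMP. Npr3, the clearance receptor of natriuretic peptides, fell with an LFC of −2.32, from 0.578 to 0.116 RPKM. Gucy1b1, a subunit of the nitric oxide receptor soluble guanylate cyclase, fell with an LFC of −1.55, from 4.17 to 1.42 RPKM. Its partner subunits Gucy1a1 and Gucy1a2 fell with an LFC of −1.26 and −1.87, and Prkg1, the soluble cGMP-dependent kinase of smooth muscle, with −1.42. Mrvi1, which encodes a substrate of that kinase, fell with an LFC of −1.71, the natriuretic peptide receptor Npr2 with −1.25, and the phosphodiesterase Pde1a with −0.998. In the quasi-likelihood test 6 genes of the list passed as lower and 1 as higher, and Gucy1a1, Npr2 and Pde1a did not pass (FDR 0.0235, 0.0185 and 0.0286). Beside them, all 9 smooth muscle markers fell in the exact test, with a median LFC of −2.03. Vasp, a substrate of cGMP-dependent kinases and the most abundant gene of the list, had 106 RPKM in germ-free and 112 RPKM in humanized mice and did not pass.

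**Figure D4:**
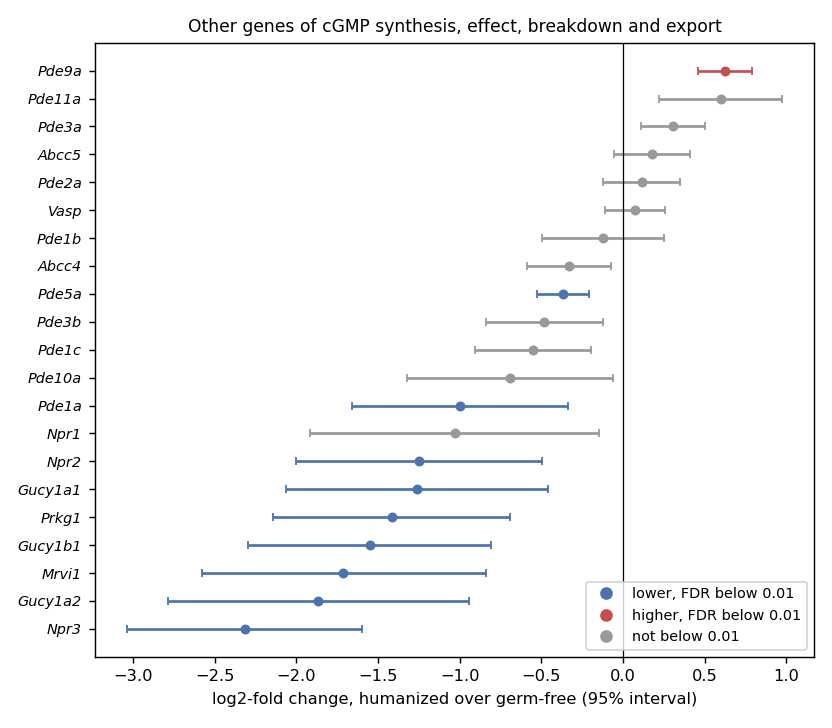
LFC with 95% intervals of the 21 tested genes of cGMP synthesis, effect, breakdown and export, ordered by LFC, with genes below an FDR of 0.01 in colour. Pde9a is the 1 gene called higher (0.62), and the 9 genes called lower run from Pde5a (−0.37) to Npr3 (−2.32).

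Cyclic AMP is the other messenger that opens CFTR, through protein kinase A. Of the 29 genes of this arm, 11 passed as lower and 1 as higher, with a median LFC of −0.37. The lower calls are 37.9% of the list, against 10.1% of all tested genes, and the quasi-likelihood test gave 8 lower calls and 1 higher. Beside them, the markers of smooth muscle (9 of 9), fibroblasts (5 of 6) and enteric neurons and glia (7 of 7) fell, the last with a median LFC of −1.997, and their part in this count was not tested. Adenylate cyclases Adcy1, Adcy5 and Adcy9 fell with an LFC of −2.65, −1.31 and −0.54, and the catalytic kinase subunit Prkacb with −0.59. Another catalytic subunit, Prkaca, had 26.9 RPKM in germ-free and 29.1 RPKM in humanized mice and did not pass. The 1 higher gene was the regulatory subunit Prkar2a (LFC 0.28, FDR 0.00189, exact test). With total counts or epithelial scaling, 0 genes of the list passed as higher. Adcy1 was barely detected, at 0.106 RPKM in germ-free mice. Adcy6, the most abundant cyclase of the list, had 76.0 RPKM in germ-free and 77.0 RPKM in humanized mice and did not pass.

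Of 27 genes for partners and trafficking of CFTR, 4 passed as higher and 1 as lower (median LFC 0.09), which is 18.5% of the list and near the 19.3% of all tested genes. Canx, the endoplasmic reticulum chaperone calnexin, rose from 58.8 to 93.2 RPKM (LFC 0.66, FDR 5.53e-16, exact test). Hspa8, a cytosolic chaperone, rose with an LFC of 0.65, and Rab11a, a GTPase of the recycling endosome, with 0.37. Dab2, an adaptor of endocytosis, fell with an LFC of −1.24. Slc9a3r1, the apical scaffold NHERF1, had 150 RPKM in germ-free and 146 RPKM in humanized mice and did not pass. With epithelial scaling, 1 of these genes passed as higher and 4 as lower, and Hspa8 and Rab11a were no longer called. Relative to the median of all genes, their LFC was 0.64 and 0.36 under TMM and 0.63 and 0.36 with epithelial scaling. With total counts 2 passed as higher and 4 as lower.

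Among 31 tested genes for other anion channels and the chloride secretion machinery, 6 passed as higher and 4 as lower, with a median LFC of −0.01. The higher calls are 19.4% of the list and the lower calls 12.9%, against 9.2% and 10.1% of all tested genes. In the quasi-likelihood test 4 passed as higher and 2 as lower, without Slc26a2. Clca1, a goblet cell protein that regulates calcium-activated chloride channels, rose from 332 to 580 RPKM (LFC 0.81, FDR 1.14e-07, exact test), and it was also among the goblet markers. Ano9, of the anoctamin family, rose with an LFC of 0.46, and the sulfate transporter Slc26a2 with 0.39. Ano6, a lipid scramblase of the same family as Ano9, fell with an LFC of −0.69. The split was 1 higher and 5 lower with epithelial scaling, in which Ano9 and Slc26a2 were no longer called, and 3 higher and 8 lower with total counts. Relative to the median of all genes, the LFC of Ano9 was 0.45 under both TMM and epithelial scaling, and that of Slc26a2 was 0.39 and 0.37.

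Of 18 tested intestinal epithelial transcription factors, 3 passed as higher and 0 as lower, which is 16.7% of the list, against 19.3% of all tested genes in either direction and 9.2% as higher. Hnf4a, a nuclear receptor of enterocyte genes, rose from 150 to 202 RPKM (LFC 0.43), and Elf3, an epithelial ETS factor, rose with an LFC of 0.45. With epithelial scaling neither passed, and their LFC was 0.22 and 0.25. Relative to the median of all genes, the LFC of Hnf4a was 0.42 under TMM and 0.40 with epithelial scaling, and that of Elf3 was 0.44 and 0.43. With total counts 1 of the 18 passed as higher and 2 as lower. Cdx1, the most abundant of them, had 186 RPKM in germ-free and 204 RPKM in humanized mice and did not pass.

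The genes whose levels moved most like those of each member were sought in deviations from the group means of log2 CPM over the 11 mice, among 10391 genes with a mean of at least 10 CPM. These correlations share library and tissue composition, so they are given as a description. Guca2a was most like Prdx5 (r = 0.98), Bsg (0.97) and Higd2a (0.97). Prkg2 was most like Mpzl2 (0.98), Entpd5 (0.97) and Acvr1b (0.97). Both sets stayed at r = 0.79 or above without humanized mouse 5. Gucy2c was most like Atpaf1 (0.96), Cyb561d1 (0.96) and Asb7 (0.95), and Guca2b was most like Ak6, Ndufab1 and Polr2d (0.92, 0.92 and 0.91). Cftr was most like Gdpd1 (0.92), Alg5 (0.86) and Atp6v1a (0.86). Best2 was most like Vps52 (0.93), Flad1 (0.90) and Arsa (0.88).

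Among the 6 genes themselves, Gucy2c and Prkg2 had r = 0.88 over the 11 mice and 0.75 without humanized mouse 5. Guca2a and Prkg2 had r = 0.85, which dropped to 0.08 without that mouse. For Guca2a and Gucy2c, r was 0.79, and 0.45 without that mouse. The neighbours Guca2a and Guca2b had r = 0.39, and 0.43 without it.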

How the data were processed

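RNA of the colon was sequenced as 101 bp paired-end reads from 5 germ-free and 6 humanized mice. Per the labels and methods, the authors converted base calls with bcl2fastq 2.17.1.14, aligned reads with TopHat2 2.1.0 and Bowtie2 2.2.3 to mm10, counted reads per gene with featureCounts (Subread 1.4.6-p5), and deposited raw counts and gene lengths in 1 table. The annotation release and strand setting are not given in the sources used here. The deposited length, a value of another kind, counts exon bases with UTRs for these genes.

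Analysis of the counts used R 4.3.3 and edgeR 4.0.16 (filterByExpr at minimum count 10, minimum total count 15, large n 10 and minimum proportion 0.7, TMM, estimateDisp, exact test), limma 3.58.1 and DESeq2 1.42.0, and tested on simulated data. RPKM used TMM libraries and deposited lengths, and CPM correlations a prior count of 2. Ratios were compared over all 462 splits of the mice, with Benjamini–Hochberg adjustment over 15 tests. The smallest p this allows is 0.00216. No label or method names a sequencing batch, and no 2 libraries of a group agreed within counting noise (mean chi-square per gene of at least 21.3). Labels give no more on how the mice of a group relate.

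The members and lists were chosen with earlier results of these data known. Besides the members, the text names from each list up to 4 genes with the smallest FDR among called genes that do not overlap, the most abundant gene if not called, and the 3 genes most like each member. Gucy1a1, Gucy1a2, Mrvi1, Npr2, Pde1a, Prkaca, Prkar2a, Prkg1 and Sytl2 were named after their values were seen. Symbols were matched by Ensembl ID, so Gucy1b1 and Clca1 stand for rows deposited as Gucy1b3 and Clca3. Alternatives were other tests, scalings, filters and thresholds, leaving out each mouse, and a block on mouse number.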

Additional observations from a re-analysis of the deposited data

Results flagged for a closer look

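Of 42 groups of values examined, 4 held a mouse that lay far from the rest of its group by Dixon's criterion, which flags about 1 in 20 groups by chance. All 4 were humanized mouse 5, and the 4 measures share its guanylin or kinase value. Guca2a was 2811 RPKM in this mouse, against 1938 RPKM in the next humanized mouse, so that the gap took 0.692 of the group's range (limit 0.625 for 6 mice). Prkg2 was 34.2 RPKM, against 21.5 RPKM in the next mouse, with a gap of 0.736 of the range. The log2 ratio of Guca2a to Guca2b was 5.63, against 5.16, with a gap of 0.787. Guca2a relative to the goblet markers was 0.84 on the log2 scale, against 0.21, with a gap of 0.717. The same mouse had the lowest smooth muscle and fibroblast marker sums of all 11 mice, and the part of these markers in its values was not tested.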

How the results depend on the processing

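Each member's LFC and call was recomputed under other tests, scalings, filters and thresholds. DESeq2, RLE and upper-quartile scaling and a count minimum of 10 in every mouse changed no call of a member. No member was called with the quasi-likelihood test (count 0, Best2 −0.64), without the low-count filter (0, Best2 −0.64, FDR 0.0107 in the exact test), or with an absolute LFC above 1 in addition (0). At an unadjusted p under 0.05, 3 members passed the exact test, 2 the quasi-likelihood test and 3 DESeq2. With total counts 2 members were called, with Guca2a at −0.48, and Guca2b, Gucy2c and Cftr turned to −0.10, −0.0027 and −0.081. With epithelial scaling 3 were called, with Guca2a at −0.50 and Prkg2 at −0.48, and the same 3 genes turned to −0.10, −0.018 and −0.083. The median LFC of all genes was −0.18 under both of these scalings, against 0.01 under TMM. In the lists, other anion channels gave 6 calls with the quasi-likelihood test and 6 with epithelial scaling, epithelial factors gave 0 with epithelial scaling, and CFTR partners gave 10 at an FDR below 0.05. With an absolute LFC above 1, 1678 of all genes were called, 4 cAMP genes, 1 CFTR partner, 0 other anion channels and 0 factors.

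With medians in place of means, the differences of Guca2a to Guca2b and of ligand to receptor were −0.43 and −0.48 and no longer passed. With the median of the markers, Guca2b, Gucy2c and Cftr relative to epithelium turned to 0.039, 0.11 and 0.035, and Gucy2c relative to goblet markers was −0.33 and no longer passed.

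Leaving out 1 mouse at a time, the number of members called was 0 to 3, and that of all genes called was 2880 to 4411. The LFC was −0.75 to −0.50 for Best2, −0.43 to −0.24 for Guca2a, −0.44 to −0.19 for Prkg2 and −0.034 to 0.17 for Guca2b. The ratio of Guca2a to Guca2b differed by −0.53 to −0.31. Relative to epithelium, Prkg2 differed by −0.59 to −0.41, Gucy2c by −0.061 to 0.030 and Guca2b by −0.19 to 0.010, and Guca2b relative to goblet markers by −0.58 to −0.33. Other anion channels gave 6 to 11 calls (6 without germ-free mouse 1 or 5), cAMP genes 7 to 13 (7 without germ-free mouse 3), and CFTR partners 4 to 9 (9 without humanized mouse 3).

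The mouse numbers share no animal, and same-numbered mice did not deviate together (r of −0.05, −0.13, 0.09, 0.09 and −0.07, with 1 of 5 germ-free mice most like its own number). With the number as a block in the quasi-likelihood test, 1012 genes were called and 0 members (Best2 −0.68), with 4 cGMP genes, 2 cAMP genes, 1 CFTR partner, 2 other anion channels and 0 factors. In the exact paired sign-flip permutation test, whose smallest p is 0.0625, no difference passed. Under this pairing Guca2a to Guca2b was −0.42, ligand to receptor −0.48, and Gucy2c relative to epithelium turned to 0.017. Relative to epithelium Guca2a was −0.47, Prkg2 −0.42 and Best2 −0.84. Relative to goblet markers Guca2a was −0.84, Guca2b −0.42, Gucy2c −0.35, Prkg2 −0.78, Cftr −0.40 and Best2 −1.21. Depth limits Best2 most, at 159 reads in the shallowest case.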
